A study of Mus musculus with 18 samples.

Results

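The ER to Golgi transport machinery was described in cultured embryonic mouse tibiae. It was the set of all genes on the array whose symbols belong to the groups named here. These were the COPII coat (Sar1, Sec13, Sec16, Sec23, Sec24, Sec31, with Mia3), the SEC22 family, the COPI coat and the ARF GTPases. The TRAPP complexes, the p24 proteins (Tmed) and the KDEL receptors were the other groups. The symbols alone chose the members, with no measured value, and 58 of 18193 genes with a probe set of their own were found. They are read by 114 of 45037 probe sets. Of the 58 genes, 56 were bright enough to be tested (92 probe sets), and Tmed6 and Tmed11 were below the signal filter. A gene's values are those of the brightest probe set with no other gene in its annotation. Another 10 probe sets name a member, Tmed2 or Tmed10, together with another gene and were not used. The Tmed2 probe set used was dim, with group means of 64.7 to 108, near the filter. A shared Tmed2 probe set reached 6987.

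Secretory cells fold their cargo in the endoplasmic reticulum and ship it in vesicles. The GTPase SAR1 recruits the inner coat of SEC23 and SEC24 and the outer cage of SEC13 and SEC31 at exit sites organised by SEC16, which buds COPII carriers. ARF GTPases recruit the COPI coat, which carries escaped resident proteins and cargo receptors back. Procollagen is a bulky load for this route. MIA3 (TANGO1) couples collagen to the COPII coat, and inherited defects of SEC23A, SEC24D, TRAPPC2 and KDELR2 in people cause disorders of the skeleton.

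Tibiae of E15.5 CD1 mouse embryos of both sexes were kept in organ culture for 6 days, with repeated treatment, and then cut into 3 zones, and the RNA was read on Affymetrix arrays. The groups were resting/proliferating, hypertrophic and mineralized zones of bones treated with C-type natriuretic peptide (CNP) at 1e-06 M, a peptide that promotes growth of the cartilage growth plate, and the same 3 zones of bones treated with the BSA/HCl vehicle. No group carried a transgene or mutation. Each group held 3 arrays, numbered 2, 3 and 4, each of RNA pooled from the same zone of about 24 bones, so the 3 zones of a numbered culture share their bones and there are 6 cultures.

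The zones could be told apart by markers. The summed signal of 4 macrophage markers was 10272 to 11762 on mineralized arrays, against 1320 to 2082 on hypertrophic and 1008 to 2168 on resting/proliferating arrays. For 4 endothelial markers it was 2093 to 2555, against 296 to 384 and 443 to 716. Osteoclast markers (4) summed to 22766 to 25874, against 1967 to 6722 and 1525 to 2680, and those of chondrocytes (5) to 8068 to 14373, against 30433 to 36380 and 18278 to 32675. Osteoblast markers (4) summed to 15330 to 27002 on mineralized arrays, against 10420 to 18712 on hypertrophic and 2465 to 5414 on resting/proliferating arrays, and 3 of 4 were called higher over the hypertrophic zone. Markers of hypertrophic chondrocytes (4) summed to 9012 to 11227, against 16280 to 22318 and 3014 to 7290. Control probe sets at both transcript ends give a 3′ over 5′ ratio, a measure of RNA quality and labelling, and actin and Gapdh ordered the zones differently. The actin ratio was 1.59 to 1.87 on mineralized, 2.20 to 3.93 on hypertrophic and 2.44 to 4.85 on resting/proliferating arrays, and the Gapdh ratio was 1.58 to 2.08, 1.30 to 1.73 and 1.26 to 1.93. The 3 highest actin ratios came from CNP arrays: 4.76 and 4.85 in resting/proliferating replicates 2 and 4, and 3.93 in hypertrophic replicate 2. In bulk RNA, fewer cells of a type and less RNA per cell cannot be told apart, and the part of these differences in the zone results below was not tested.

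Most members differed between the mineralized zone and the 2 cartilage zones, and they did so in both directions. Zones were compared within cultures with limma, and a call means an adjusted p under 0.05 over all 27022 probe sets tested. In the mineralized against the hypertrophic zone, 19 of 56 members were higher (33.9%, against 23.4% of all genes) and 14 were lower (25%, against 22.5%). Against the resting/proliferating zone, 18 were higher (32.1%, against 23.3% of all genes) and 16 lower (28.6%, against 28.3%). In the hypertrophic against the resting/proliferating zone, 2 were higher (3.57%, against 15.7% of all genes) and 9 were lower (16.1%, against 20.6%). The median log2 difference of the members was 0.106 in the mineralized over the hypertrophic zone, against -0.009 over all genes. Of the 56, 14 were called in none of the 3 contrasts: Copa, Cope, Copg1, Copz2, Kdelr3, Sec23ip, Tmed2, Tmed5, Tmed7, Trappc1, Trappc11, Trappc12, Trappc5 and Trappc6a.

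The mineralized zone stood above both other zones in 15 members, 26.8% of those tested, as it did in 15.4% of all genes. These were Mia3, Sec16a, Sec24a, Sec24c, Sec24d and Sec31a of the COPII group, Arf3, the TRAPP genes Trappc6b, Trappc8, Trappc9 and Trappc10, Tmed8 and Tmed10, and Kdelr1 and Kdelr2. It stood below both other zones in 11 members, 19.6%, as it did in 15.8% of all genes. These were Sar1b, Sec13 and Sec23a, the COPI genes Copb1, Copb2 and Copz1, Arf2, Sec22b, and Trappc2, Trappc3 and Trappc4. The calls of these contrasts are not separate evidence, since the 2 share the mineralized arrays. How the arrays are scaled moves the split. After median centring the mineralized over hypertrophic calls were 10 higher and 17 lower, or 37% higher, as were 45.7% of the calls among all genes. Those over the resting/proliferating zone were 12 and 18, or 40% higher, against 40.7% among all genes. With no normalization the calls were 22 and 2, and 19 and 2 (91.7% and 90.5% higher, against 89.2% and 83.3% among all genes), but there the median of all probe sets itself lay 0.44 and 0.41 above 0 on the log2 scale. Leaving out any 1 of the 18 arrays kept 25 of the 33 calls over the hypertrophic zone and 25 of the 34 over the resting/proliferating zone, and leaving out any replicate number in all groups kept 17 of each.

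**Figure D1:**
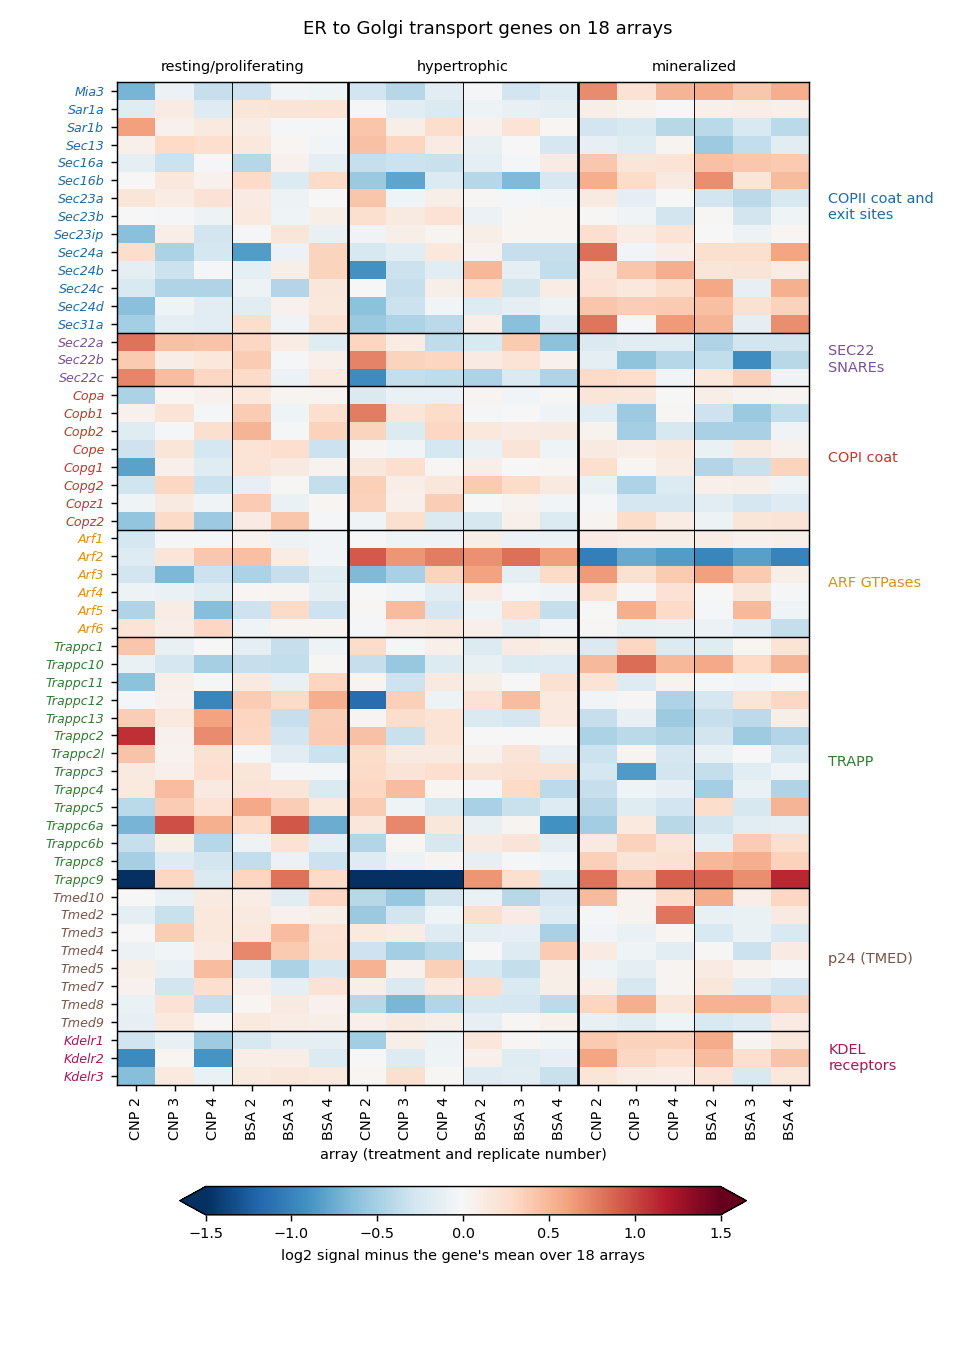
Colour shows the log2 signal of each of 56 transport genes (rows, by role) on each of 18 arrays (columns, CNP left of BSA within each zone), minus the gene's mean over all arrays. Arf2 and Sec22b are blue and Mia3, Trappc10, Tmed8 and Kdelr2 red over the mineralized arrays, and Trappc9 is dark blue on the 3 CNP hypertrophic arrays and on CNP replicate 2 of the resting/proliferating zone.

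Within the COPII group, Mia3, Sec31a, the Sec24 cargo adaptors and the Sec16 scaffolds were higher in mineralized than in hypertrophic pieces, and Sar1b, Sec13, Sec23a and Sec23b were lower. Of 14 members tested, 9 were higher (23.4% of all genes) and 4 lower (22.5%). Mia3, which loads procollagen into COPII carriers, had signals of 999, 701 and 866 on CNP mineralized arrays (replicates 2, 3 and 4, as in all lists below) and 897, 806 and 887 on BSA mineralized arrays. On hypertrophic arrays it had 490.0, 442 and 533 with CNP and 598, 491 and 524 with BSA, and on resting/proliferating arrays 366, 564 and 472 with CNP and 481, 584 and 575 with BSA. All 6 mineralized arrays lay above all 12 others. The difference was 1.65-fold over the hypertrophic zone (log2 0.72 ± 0.13 SE, adjusted p = 0.00035) and 1.68-fold over the resting/proliferating zone (log2 0.75 ± 0.13, adjusted p = 0.0002). Of its 4 probe sets tested, 1 differed by -0.22 and -0.18 (log2) and did not pass, and the other two were called higher in both contrasts.

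Sec31a, the rod of the outer cage, had 2447, 1381 and 2191 on CNP mineralized arrays and 1998, 1276 and 2285 on BSA mineralized arrays, against 945, 1015 and 1058 on CNP and 1500, 901 and 1224 on BSA hypertrophic arrays. Replicate 3 was the lowest of the mineralized arrays in both treatments and overlapped the hypertrophic range, yet the mineralized value was higher in 6 of 6 cultures. The difference was 1.71-fold (log2 0.77 ± 0.13, adjusted p = 0.00019). Sec16b, a scaffold of exit sites, had 966, 802 and 723 on CNP and 1079, 748 and 925 on BSA mineralized arrays, against 444, 373 and 567 on CNP and 486, 410 and 555 on BSA hypertrophic arrays. These groups did not overlap, and the difference was 1.82-fold (log2 0.87 ± 0.12, adjusted p = 2.7e-05). On resting/proliferating arrays Sec16b had 659, 736 and 688 with CNP and 806, 567 and 811 with BSA, so the hypertrophic zone was its low point (log2 -0.58 ± 0.12 against the resting/proliferating zone, adjusted p = 0.0013).

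The 4 SEC24 adaptors, which pick cargo, rose together over the hypertrophic zone, by 0.47 (Sec24a), 0.51 (Sec24b), 0.30 (Sec24c) and 0.60 (Sec24d) on the log2 scale. Sec24d, whose human counterpart is mutated in a form of osteogenesis imperfecta, was higher in 6 of 6 cultures (adjusted p = 6.1e-05), as was Sec16a (log2 0.51, adjusted p = 0.00027). The calls of Sec24a and Sec24b were lost when single arrays were left out (11 and 2 of 18 arrays). After median centring Mia3, Sec31a, Sec16a, Sec16b and Sec24b still passed and Sec24a (adjusted p = 0.059), Sec24c (0.635) and Sec24d (0.069) did not.

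Sar1b, the SAR1 form whose human counterpart is needed for chylomicron export, went the other way. It had 2970.4, 3086 and 2722 on CNP and 2741, 3090.3 and 2747 on BSA mineralized arrays, against 4829.5, 3855 and 4362 on CNP and 3788, 4199 and 3698 on BSA hypertrophic arrays. No mineralized array reached the lowest hypertrophic one, and the fall was to 0.705 of the hypertrophic signal (log2 -0.50 ± 0.08, adjusted p = 6.9e-05). Sec13 (log2 -0.31 ± 0.09, adjusted p = 0.011), Sec23a (-0.22 ± 0.06, adjusted p = 0.0091) and Sec23b (-0.20 ± 0.07, adjusted p = 0.036) were lower too. Sec23b lost its call without any of 7 single arrays. Without normalization Sec23b lay at 0.00 where the median of all probe sets was 0.44, and set against that median these 4 genes were at -0.78 to -0.43. Sar1a, the other SAR1 gene, is uncertain: its brightest probe set was 0.19 higher over the hypertrophic zone, a second one was 0.68 lower (adjusted p = 0.00029), and after median centring the first was 0.18 lower.

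**Figure D2:**
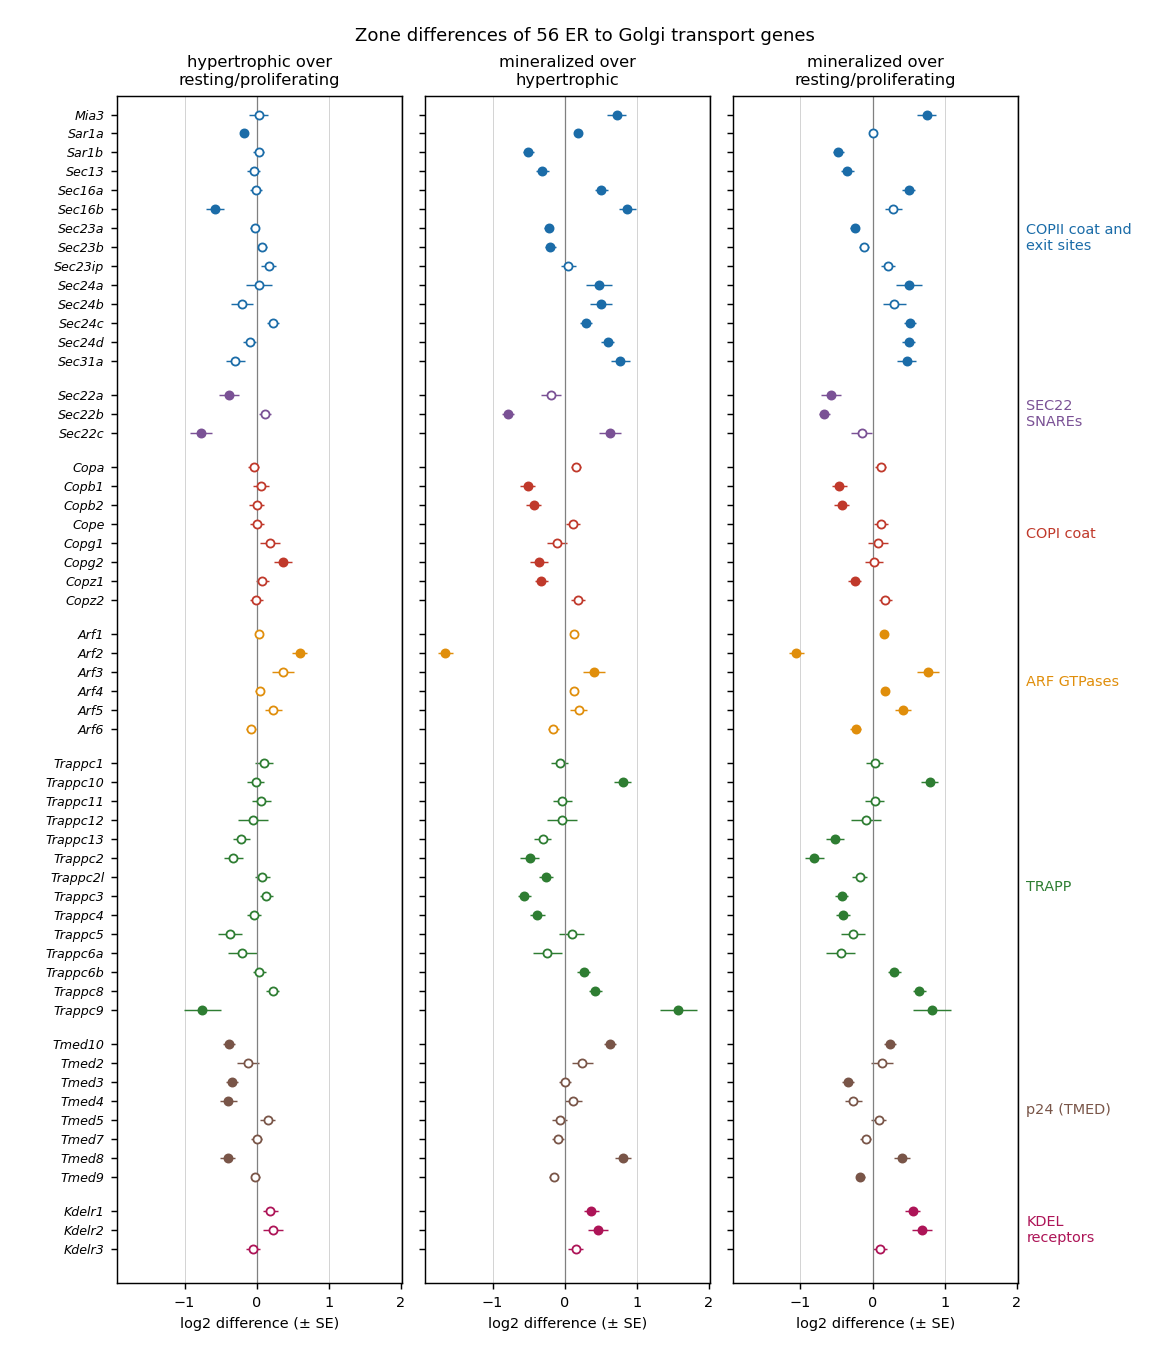
Points give the log2 difference between zones for each of 56 transport genes (rows, coloured by role), with bars for 1 standard error of the fit over 6 cultures, and filled points passed the test. The filled points lie on both sides of 0 in the 2 panels that hold the mineralized zone, from -1.65 (Arf2) to 1.58 (Trappc9) over the hypertrophic zone, and are few in the panel of hypertrophic over resting/proliferating zone.

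Among the ARF GTPases, Arf2 had the widest difference of any member between the mineralized and hypertrophic zones. Arf2 is an ARF of the class that recruits coats to Golgi membranes, and it is present in mice and lost in humans. Its signals were 762, 921 and 867 on CNP and 787, 885 and 777 on BSA mineralized arrays, against 2987.5, 2489 and 2687 on CNP and 2532, 2796 and 2437.5 on BSA hypertrophic arrays. On resting/proliferating arrays it had 1373, 1773 and 2077 with CNP and 2145, 1702 and 1526 with BSA. The 3 zones did not overlap. The mineralized signal was 0.318 of the hypertrophic one (log2 -1.65 ± 0.11, adjusted p = 9e-09) and 0.481 of the resting/proliferating one (-1.06 ± 0.11, adjusted p = 8.2e-07). The hypertrophic signal was 1.51-fold that of the resting/proliferating zone (log2 0.60 ± 0.11, adjusted p = 0.00039). All 4 of its probe sets ran in the same direction, and the 3 calls held without any single array and after median centring.

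Arf3 was higher in the mineralized than in the resting/proliferating zone (log2 0.77 ± 0.15, adjusted p = 0.00055), as were Arf5 (0.42), Arf4 (0.17) and Arf1 (0.16). Another Arf3 probe set differed by -0.45 and did not pass. After median centring Arf1 was at -0.19 and Arf4 at -0.14, so their direction depends on the scaling. For Arf6 the brightest probe set was lower (-0.23) and a second was higher (0.55, adjusted p = 0.024), so its direction is uncertain.

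In the COPI coat no member was higher in the mineralized zone, and 4 of 8 were lower than in the hypertrophic zone (22.5% of all genes). Copb1, the beta subunit, had 1548, 1187 and 1761 on CNP and 1402, 1176 and 1346 on BSA mineralized arrays, against 2972, 1978.5 and 2109.7 on CNP and 1714, 1741 and 1684.5 on BSA hypertrophic arrays (log2 -0.51 ± 0.11, adjusted p = 0.0013). CNP replicate 4 of the mineralized zone was the one array inside the hypertrophic range. Copb2 fell by 0.43 (adjusted p = 0.0041), Copz1 by 0.33 (adjusted p = 0.0086) and Copg2 by 0.35 (adjusted p = 0.036) on the log2 scale. Copg2 was called higher in the hypertrophic than in the resting/proliferating zone (0.37, adjusted p = 0.035), but its calls depended on single arrays: the fall was lost without any of 9, and the rise without any of 8, of the 18. Arcn1, the delta subunit that the symbol rule leaves out, differed by 0.07 ± 0.06 (adjusted p = 0.41). A second Copg1 probe set was higher by 0.61 (adjusted p = 0.0023), while the brightest one was at -0.10 and did not pass.

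The SEC22 family, which includes a SNARE of fusion between the endoplasmic reticulum and the Golgi, split. Sec22b had 3269.7, 2378 and 2685 on CNP and 2798, 1894.5 and 2712.5 on BSA mineralized arrays, against 6083, 4572 and 4527.5 on CNP and 3946, 4177 and 3784.5 on BSA hypertrophic arrays. The groups did not overlap, at 0.582 of the hypertrophic signal (log2 -0.78 ± 0.08, adjusted p = 1.7e-06). A second Sec22b probe set differed by 0.06 in this contrast, so the fall rests on 1 of 2 probe sets. Sec22c was dim. It had 175, 172 and 136 on CNP and 159, 184 and 135 on BSA mineralized arrays, against 65.7, 106 and 105 on CNP and 97.9, 119 and 98.9 on BSA hypertrophic arrays, a gain of 1.54-fold (log2 0.63 ± 0.15, adjusted p = 0.0035). Its second probe set was not called in any zone contrast. Sec22a was lower in the mineralized than in the resting/proliferating zone (-0.58 ± 0.14, adjusted p = 0.0032).

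The TRAPP complexes tether incoming vesicles and act as exchange factors for Rab GTPases. Of 14 subunits tested, 4 were higher and 4 lower in the mineralized than in the hypertrophic zone (23.4% and 22.5% of all genes). The 2 subunits of the TRAPPII form were the ones that rose most. Trappc10 had 977, 1257 and 987 on CNP and 1037, 858 and 999.6 on BSA mineralized arrays, against 542, 463 and 599.9 on CNP and 640.4, 599 and 604 on BSA hypertrophic arrays. These groups did not overlap (1.75-fold, log2 0.81 ± 0.12, adjusted p = 5.1e-05), and the difference over the resting/proliferating zone was close to it (log2 0.79 ± 0.12). Trappc9 was 2.99-fold higher over the hypertrophic zone when both treatments were averaged (log2 1.58 ± 0.26, adjusted p = 0.00015), but by 2.49 in CNP cultures and 0.67 in BSA cultures on the log2 scale, where it was not called (adjusted p = 0.065). Over the resting/proliferating zone it was 0.83 higher (adjusted p = 0.016), against 0.42 in BSA cultures alone (adjusted p = 0.21) and 0.27 without the 3 arrays of highest actin ratio (adjusted p = 0.42), so the call was lost in both. Its signals are given with the CNP results. Trappc8 rose by 0.43 (adjusted p = 0.0012), but not past the threshold after median centring (0.30, adjusted p = 0.054).

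The TRAPP members called lower, Trappc2, Trappc2l, Trappc3 and Trappc4, belong to the core shared by the complexes, while Trappc1, Trappc5 and Trappc6a of that core were not called and Trappc6b was higher. The Trappc2l call (adjusted p = 0.049) was kept in 3 of the 18 omissions of a single array and that of Trappc6b in 11, and after median centring Trappc6b was at 0.07 (adjusted p = 0.705). Trappc2, mutated in people with X-linked spondyloepiphyseal dysplasia tarda, had 719.9, 756 and 727 on CNP and 825, 687 and 736 on BSA mineralized arrays, against 2162, 1048 and 1647 on CNP and 1253, 819 and 1307 on BSA resting/proliferating arrays. The groups overlapped only through BSA replicate 3 of the resting/proliferating zone, which lay just under BSA replicate 2 of the mineralized zone, and the fall was by 0.81 ± 0.13 on the log2 scale (adjusted p = 0.00012). Over the hypertrophic zone it fell by 0.48 (adjusted p = 0.0081), Trappc3 by 0.56 (adjusted p = 0.00013) and Trappc4 by 0.38 (adjusted p = 0.0064). Trappc13 was lower than in the resting/proliferating zone (-0.52 ± 0.12, adjusted p = 0.0025). Trappc2 kept its call without any single array but lost it over the hypertrophic zone without replicate 2 or 4 of all groups.

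The p24 proteins shuttle selected cargo between the endoplasmic reticulum and the Golgi. In the mineralized against the hypertrophic zone 2 of 8 tested were higher (23.4% of all genes) and 0 lower (22.5%). Tmed10 had 2495, 1853 and 2142 on CNP and 2642, 1916 and 2223 on BSA mineralized arrays, against 1330.5, 1203 and 1467 on CNP and 1661, 1338 and 1493 on BSA hypertrophic arrays, with no overlap (1.55-fold, log2 0.63 ± 0.08, adjusted p = 1.7e-05). Brighter probe sets that name Tmed10 together with Tmed10-ps were not used, and on BSA arrays they differed less. Their BSA group means were 2745, 3356, 3664 and 3607 in the hypertrophic zone, against 3120, 3360, 3805 and 3703 in the mineralized zone. Their CNP means were 2207, 2926, 3495 and 3210, against 3200, 3702, 4084 and 4015. Tmed8 rose by 0.81 ± 0.11 (adjusted p = 2.1e-05), while its second probe set was at -0.35 and did not pass. KDEL receptors return escaped chaperones to the endoplasmic reticulum. Kdelr2 had 2508, 2071 and 1974 on CNP and 2305, 1967 and 2235 on BSA mineralized arrays, against 1669.7, 1452 and 1587 on CNP and 1752, 1458 and 1528 on BSA hypertrophic arrays. All mineralized arrays lay above all hypertrophic ones (1.38-fold, log2 0.46 ± 0.14, adjusted p = 0.013). This call was lost without CNP hypertrophic replicate 3 or CNP mineralized replicate 2. A second Kdelr2 probe set differed by -0.25 and did not pass. Kdelr1 rose by 0.37 (adjusted p = 0.01), and Kdelr3 differed by 0.15 without passing. After median centring neither Kdelr1 (0.15) nor Kdelr2 (0.26) passed over the hypertrophic zone.

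**Figure D3:**
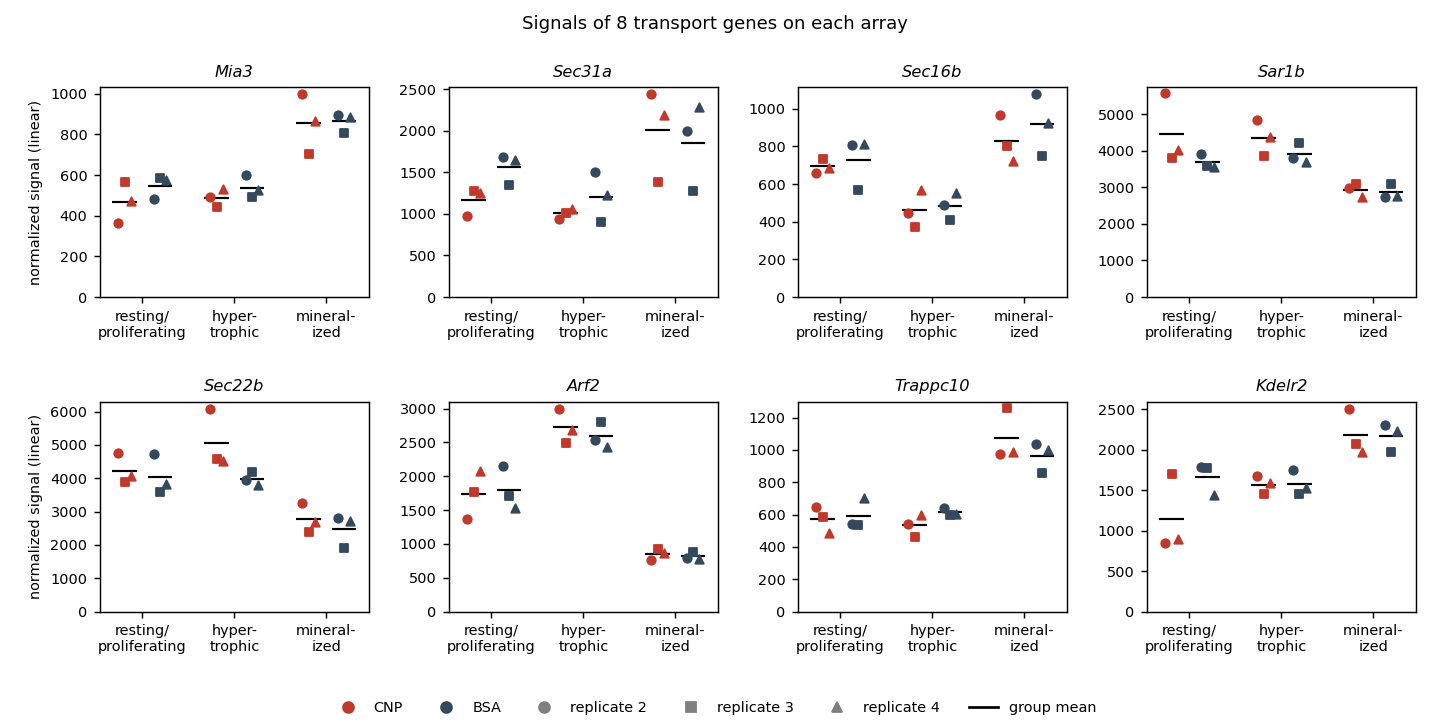
Points show the normalized signal (linear axes from 0, 1 panel per gene) of 8 transport genes on each array, with CNP in red left of BSA in dark blue within each zone, marker shapes for the replicate number and bars for group means. Mia3, Sec31a, Sec16b, Trappc10 and Kdelr2 have their highest group means in the mineralized zone, and Sar1b, Sec22b and Arf2 their lowest.

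Between the hypertrophic and the resting/proliferating zone 11 members were called. Besides Arf2, Copg2, Sec16b and Sar1a these were 7 lower members: Sec22c (log2 -0.78 ± 0.15), Trappc9 (-0.75 ± 0.26), Tmed8 (-0.40 ± 0.11), Tmed4 (-0.39 ± 0.12), Sec22a (-0.39 ± 0.14), Tmed10 (-0.39 ± 0.08) and Tmed3 (-0.34 ± 0.08). Of the 8 p24 genes tested, 4 were thus lower (20.6% of all genes) and 0 higher (15.7%). After median centring Tmed3 did not pass (-0.31, adjusted p = 0.104), and Tmed4 and Tmed8 were called in neither treatment alone. The probe sets shared by Tmed10 and Tmed10-ps had hypertrophic BSA means of 2745, 3356, 3664 and 3607. In the resting/proliferating zone these were 2785, 3201, 3663 and 3470. Their CNP means were 2207, 2926, 3495 and 3210, against 2246, 3072, 3387 and 3399. Calls of Arf2, Sec16b, Sec22c, Tmed8, Tmed10 and Tmed3 held without any single array. Those of Trappc9, Tmed4, Sec22a, Sar1a and Copg2 were each lost without 4 or more of the 18 arrays. Trappc9 was at -1.26 in CNP cultures (adjusted p = 0.056) and at -0.25 in BSA cultures (adjusted p = 0.53), and was called in neither alone. For Sar1a the second probe set again ran the other way (0.75, adjusted p = 0.00016). Those of Tmed8 (0.24) and Sec22c (0.16) did so too, without passing. Of 11 secreted matrix genes tested, 6 were higher (15.7% of all genes) and 0 lower (20.6%). In the mineralized over the hypertrophic zone 1 of them was higher (23.4% of all genes) and 7 lower (22.5%).

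CNP and BSA cultures, tested apart, gave 21 and 18 members called in the mineralized against the hypertrophic zone. Of these, 13 were shared in the same direction and 0 in opposite directions, which is 61.9% of the CNP list and 72.2% of the BSA list. Among all genes these shares were 72.5% and 72.4%. Against the resting/proliferating zone each treatment gave 21 calls, of which 13 were shared (61.9% of each list, against 77.9% and 73.6% for all genes). In the hypertrophic against the resting/proliferating zone 3 members were called in CNP and 8 in BSA cultures, and 1 was shared (33.3% and 12.5%, against 65.1% and 60.9% for all genes). Each treatment rests on 3 cultures.

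Of the other genes of the route (tethers, SNAREs, cargo receptors, Rab GTPases and regulators), 40 could be tested. In the mineralized against the hypertrophic zone 10 of 40 were higher, against 23.4% of all genes, and 4 of 40 lower, against 22.5%. Against the resting/proliferating zone 11 of 40 were higher, against 23.3% of all genes, and 5 of 40 lower, against 28.3%. In the hypertrophic against the resting/proliferating zone 6 of 40 were higher, against 15.7% of all genes, and 4 of 40 lower, against 20.6%. Creb3l1 (OASIS), a membrane-bound transcription factor known from osteoblasts, rose by 1.25 ± 0.15 over the hypertrophic zone (adjusted p = 5.6e-06) and by 1.65 ± 0.15 over the resting/proliferating zone (adjusted p = 2.3e-07). Creb3l2 (BBF2H7), its relative that activates Sec23a in mouse chondrocytes, was lower in the hypertrophic than in the resting/proliferating zone (-0.67 ± 0.14, adjusted p = 0.0016) and higher in the mineralized than in the hypertrophic zone (0.48 ± 0.14, adjusted p = 0.013). Sec23a differed by -0.03 and -0.22 in these contrasts. Preb (SEC12), the exchange factor that loads SAR1 with GTP, rose by 0.64 ± 0.14 over the hypertrophic zone (adjusted p = 0.0017).

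Promoters of the members were searched for 3 elements of the secretory stress response, since Creb3l1 and Creb3l2 belong to the factors known to bind such elements. RefSeq promoters on GRCm38.p6, from 250 bases before to 50 bases after the start, were given for 49 members. The element TGACGTGG (known as UPRE), on either strand, was in promoters of 7 members, Arf1, Copb1, Copb2, Kdelr3, Sec16b, Sec23a and Sec24d. That is 14.3% of members, against 0.714% of all 27025 genes with a promoter in the table. The element TGACGTCA (CRE) was in 1 (Cope), 2.04% against 2.03%. The ERSE, CCAAT and CCACG with 9 bases between them, was in 0 of 49, against 0.137% of genes. These are matches of letters, not sites shown to be bound, and a gene can have several starts. The 5 windows that hold the UPRE wholly upstream of 1 annotated start are shown because these genes differ in their zone pattern. For other starts this does not hold. The same Arf1 element lies 21 bases past a second Arf1 start. The Sec16b and Sec24d elements lie inside the gene models, which begin at 157506733 and 123264801. Capitals mark the element, which reads CCACGTCA where it lies on the other strand. Sequences run 5′ to 3′ on the gene's strand, 80 bases each.
Sec24d, chr3:123267416-123267495, plus strand: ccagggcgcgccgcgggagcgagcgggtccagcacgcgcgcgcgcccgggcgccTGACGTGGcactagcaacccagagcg
Sec16b, chr1:157506716-157506795, plus strand: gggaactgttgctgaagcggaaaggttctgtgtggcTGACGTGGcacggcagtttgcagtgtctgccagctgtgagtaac
Kdelr3, chr15:79516328-79516407, plus strand: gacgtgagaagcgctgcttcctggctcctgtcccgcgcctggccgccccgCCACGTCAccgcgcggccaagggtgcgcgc
Copb1, chr7:114254681-114254760, minus strand: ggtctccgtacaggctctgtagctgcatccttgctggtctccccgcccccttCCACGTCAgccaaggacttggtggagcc
Arf1, chr11:59228203-59228282, minus strand: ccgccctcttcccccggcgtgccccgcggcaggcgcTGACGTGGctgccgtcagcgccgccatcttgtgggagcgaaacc

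The 7 members with this element did not share a zone pattern. In the mineralized against the hypertrophic zone Sec16b and Sec24d were higher, Copb1, Copb2 and Sec23a were lower, and Arf1 (0.13) and Kdelr3 (0.15) were not called.

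Few members passed the test of CNP against BSA. In the hypertrophic zone 1 of 56 members was called, Trappc9, which was lower, as 2% of all genes were called there. In the resting/proliferating zone 0 of 56 were called by limma (0.0302% of all genes), with 13 at an unadjusted p under 0.05. In the mineralized zone 0 were called (0.00755% of all genes), with 2 at an unadjusted p under 0.05, and on the mean of the zones 0 (0.0302% of all genes), with 7. The members' median log2 difference was -0.096 in the resting/proliferating, -0.009 in the hypertrophic and 0.036 in the mineralized zone, against -0.012, -0.010 and -0.003 over all genes. CNP and BSA arrays did not overlap for 9 members in the resting/proliferating zone (14.8% of all genes), 13 in the hypertrophic zone (18.8%) and 5 in the mineralized zone (10% of all genes). All 40 other genes of the route missed the threshold in each of these contrasts.

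**Figure D4:**
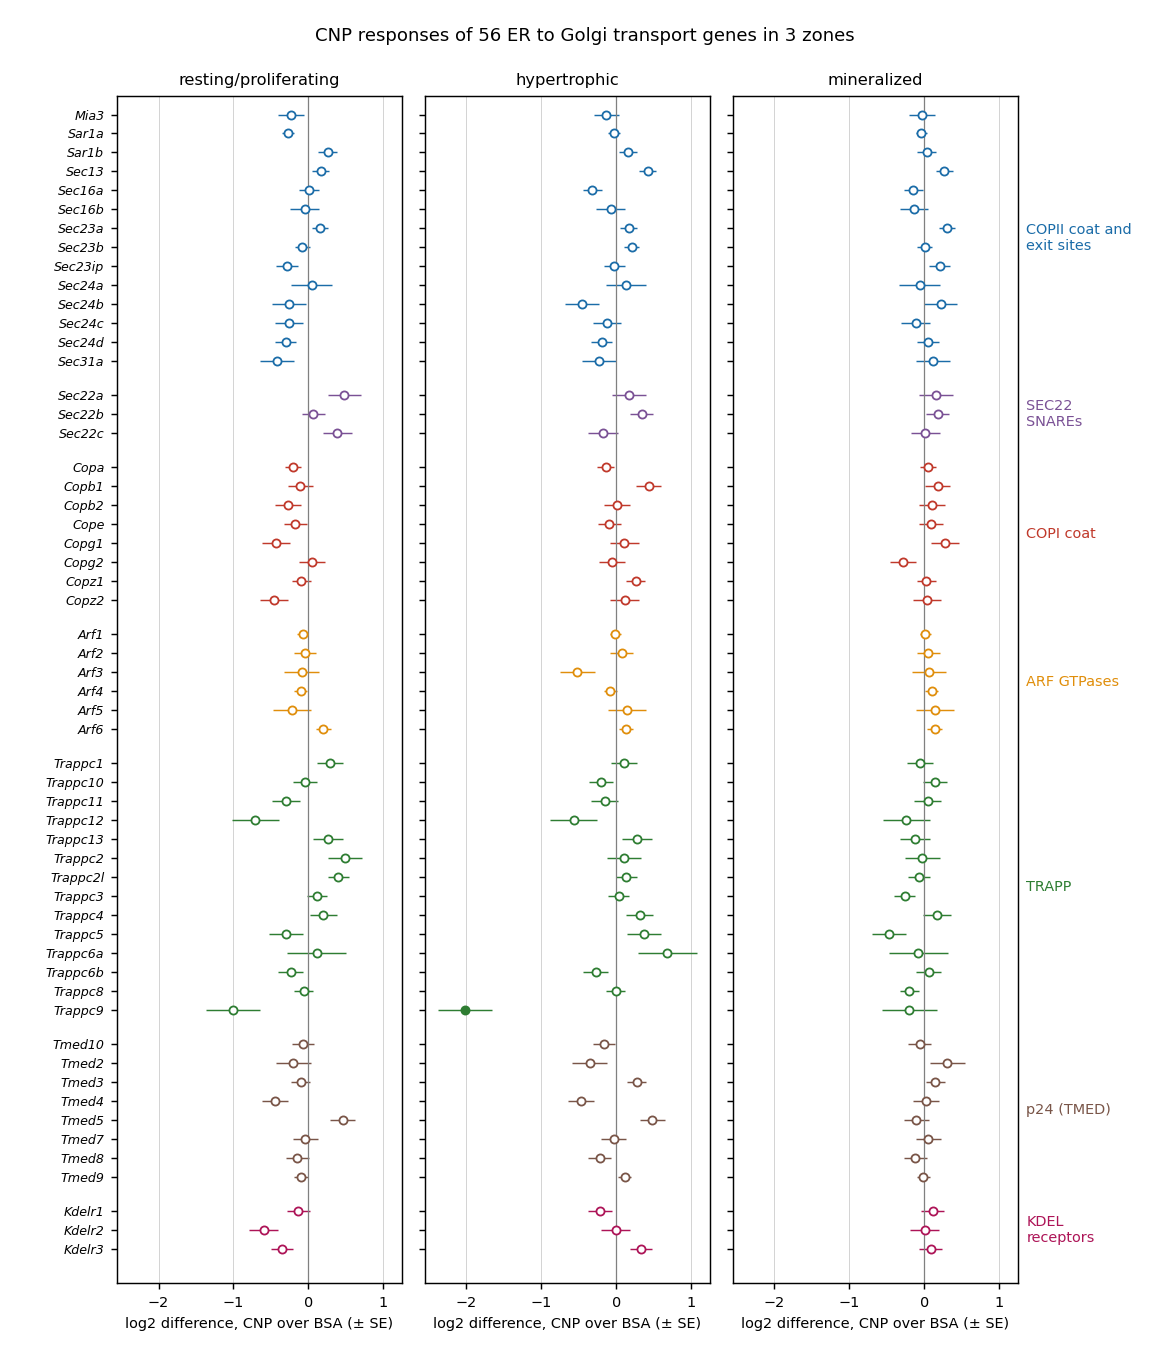
Points give the log2 difference, CNP over BSA, for each of 56 transport genes (rows, coloured by role) in 3 zones, with bars for 1 standard error of the fit, and filled points passed the test. Trappc9 in the hypertrophic zone, at -2.02, is the 1 filled point.

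Trappc9 encodes a subunit of TRAPPII, and its loss in people causes intellectual disability with small head size. Its signal was 15.4, 12.2 and 21.8 on CNP hypertrophic arrays, against 159, 115.5 and 80.3 on BSA hypertrophic arrays. All 3 CNP values lay below the filter level of 63.5 and the groups did not overlap (log2 -2.02 ± 0.36, 0.247 of the BSA signal on the scale of signal + 16, adjusted p = 0.0066). On resting/proliferating arrays it was 18.7, 122 and 79.9 with CNP, against 123, 179.6 and 120.1 with BSA, a level of 0.498 of the BSA signal (adjusted p = 0.28). On mineralized arrays it was 179, 131 and 190.2 with CNP, against 189, 163.5 and 227 with BSA, a difference of -0.20 ± 0.36 (adjusted p = 1). Averaged over the zones the difference was -1.07 ± 0.18 (adjusted p = 0.091).

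The Trappc9 call in the hypertrophic zone held without each single array, with an adjusted p of up to 0.048. It was lost when replicate 3 (adjusted p = 0.078) or replicate 4 (0.087) was left out of all groups. Replicate 3 was hybridized on 1 day and replicates 2 and 4 on another. The numbered differences were -2.48, -2.22 and -1.35 (replicates 2, 3 and 4), and the adjusted p was 0.0061 when hybridization day entered the fit as a block. The change of the response between zones did not pass, neither in the hypertrophic minus the resting/proliferating zone (-1.01 ± 0.52, adjusted p = 0.51) nor in the mineralized minus the hypertrophic zone (1.82 ± 0.52, adjusted p = 0.31). Osteoclast markers summed to 1967 to 3865 on CNP and 6009 to 6722 on BSA hypertrophic arrays, and skeletal muscle markers to 354 to 1041 and 180 to 291. Osteoblast markers summed to 10420 to 13995 on CNP and 13283 to 18712 on BSA hypertrophic arrays, with all 4 negative (median log2 -0.63), 0 called and 2 at an unadjusted p under 0.05. Of those tested, 1 of 3 osteoclast and 1 of 4 macrophage markers were called lower with CNP and the 1 muscle marker higher. The part of these differences in the Trappc9 result was not tested. The other 2 Trappc9 probe sets were below the filter, and 5 gene models, among them the non-coding Peg13, overlap Trappc9 in the GRCm38.p6 gene table.

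**Figure D5:**
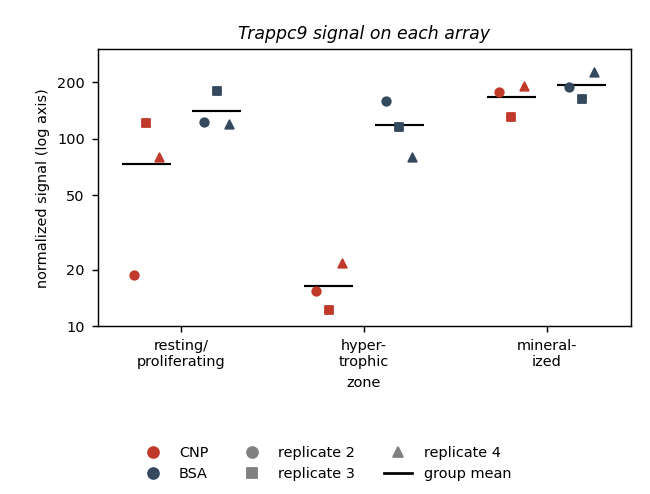
Points show the normalized Trappc9 signal (log axis) on each array by zone, CNP in red left of BSA in dark blue, with marker shapes for the replicate number and bars for group means. The 3 CNP hypertrophic arrays lie between 12.2 and 21.8, below the BSA hypertrophic arrays at 80.3 to 159, and CNP replicate 2 of the resting/proliferating zone lies at 18.7.

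In the resting/proliferating zone, Sar1a and Kdelr2 had the smallest p. Sar1a had 5142, 6348 and 5099 with CNP, against 6586, 6656 and 6693 with BSA, without overlap (-0.27 ± 0.08, adjusted p = 0.19). Kdelr2 had 852, 1694 and 894 with CNP, against 1781, 1775 and 1434 with BSA (-0.60 ± 0.19, adjusted p = 0.23). CNP replicates 2 and 4, the low ones for both genes, were also the 2 arrays of highest actin ratio, and CNP replicate 3 had a ratio of 2.55. The part of RNA quality in these values was not tested. A second Sar1a probe set had 638, 656 and 944 with CNP, against 721, 633 and 640 with BSA, a higher mean with CNP. On hypertrophic arrays it had 1604, 1279 and 1412 with CNP, against 907, 1119 and 925 with BSA, without overlap. Neither of these differences passed the test. A second Kdelr2 probe set had means of 1285 with CNP and 1388 with BSA in the resting/proliferating zone. Without CNP replicate 3 of this zone, Kdelr2 (-0.91, adjusted p = 0.0028) and Sar1a (-0.38, adjusted p = 0.0077) were called lower. Copz2 (-0.74, adjusted p = 0.014) and Trappc9 (-1.42, adjusted p = 0.034) were as well. The share of all genes called under this omission is not given, so these calls are no result about the members as a set.

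Sec13, part of the outer COPII cage, had a higher mean with CNP in each zone without passing the test. It had 4439.5, 4082 and 3564 on CNP hypertrophic arrays, against 3009, 3285 and 2736 on BSA hypertrophic arrays, without overlap (0.42 ± 0.11, adjusted p = 0.074). In the mineralized zone it had 3003.5, 2883 and 3348 with CNP, against 2232, 2526 and 2923 with BSA (0.27 ± 0.11, adjusted p = 1), and averaged over the zones the difference was 0.28 ± 0.06 (adjusted p = 0.16). Without normalization its mineralized difference was -0.16, where the median of all probe sets lay at -0.37. Without CNP hypertrophic replicate 4, Sec13 (0.50, adjusted p = 0.042) and Arf3 (-0.82, adjusted p = 0.045) were called beside Trappc9. The share of all genes called under that omission is not given, so these calls are no result about the members as a set. Sec23a had 4402, 3611 and 4012 on CNP mineralized arrays, against 3319, 3029.8 and 3384 on BSA mineralized arrays (0.30 ± 0.11, adjusted p = 1).

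No member passed the test for a CNP response that differs between zones. In the hypertrophic minus the resting/proliferating zone 0 of 56 were called by limma (0.226% of all genes), with 6 at an unadjusted p under 0.05, and in the mineralized minus the hypertrophic zone 0 (0.083% of all genes), with 5. Kdelr3 (0.68 ± 0.20, adjusted p = 0.24) and Copz2 (0.57 ± 0.18, adjusted p = 0.3) had the smallest p in the first, and Trappc9 and Tmed5 (-0.59 ± 0.21, adjusted p = 0.48) in the second. Without CNP resting/proliferating replicate 3, Kdelr2 alone was called in the first (0.95, adjusted p = 0.0496). For this omission too the share of all genes called is not given.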

How the data were processed

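RNA of 18 Affymetrix MOE430_2 arrays was analysed. The deposited table holds 1 linear signal intensity per probe set, and the authors' values were not scaled between arrays (array medians 39.3 to 174.2). Per the series design, GeneSpring 7.2 was used, and the sources used here do not give the program that summarised the probes. After 64 controls were left out of 45101 probe sets, quantile normalization was applied, and limma 3.58.1 in R 4.3.3 (eBayes with trend, two-sided) was run on log2(signal + 16), leaving out the lowest 40% by mean (signal under 63.5), with Benjamini-Hochberg adjustment over 27022 probe sets. Folds are on that scale and understate changes of dim genes. For arrays, their number limits the precision.

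Groups came from titles; BSA resting/proliferating replicate 4 has a treatment field that reads CNP, and counting it so gave 0 calls in that zone. CNP was compared within zones in 1 fit without the replicate number, its average on 6 culture means, and zones and responses within cultures. The series design calls the numbered cultures independent trials. Same-numbered arrays deviated together in the resting/proliferating zone (r = 0.187, 0.378 and 0.154) and in culture means (0.173, 0.337 and 0.213), which also share a hybridization day. In the mineralized zone r was 0.137, 0.118 and 0.062, and in the hypertrophic zone it was -0.018, 0.091 and 0.123. The replicate block left 0 calls in the resting/proliferating zone and in the culture means.

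Names came from the platform annotation (34945 probe sets with 1 symbol, 932 with several, 9160 with none). Per comparison, values were given for members called with CNP, or else the 2 of smallest p, and for up to 8 that rose and 8 that fell most between zones. Other members named for their role were chosen after their values were seen. The members and lists were chosen with earlier results of these data known. The method was tested on simulated data. The instrument logs (text, unit other) gave the deposited hybridization day, fluidics run and 4 aborted logs.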

Additional observations from a re-analysis of the deposited data

How the results depend on the processing

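Counts are of member genes called. Between hypertrophic and resting/proliferating zones (11 called) there were 17 with any probe set of a gene counted, 6 after median centring, 2 with no normalization and 3 in CNP cultures only. Between mineralized and hypertrophic zones (33) there were 21 in CNP and 18 in BSA cultures only, and between mineralized and resting/proliferating zones (34) there were 21 in either, 21 with no normalization and 22 without the 3 arrays of highest actin ratio, a setting chosen after seeing the data. Leaving out replicates gave 5 to 13, 21 to 35 and 25 to 35 calls in these 3 contrasts, 0 to 4 for CNP in the resting/proliferating and 0 to 3 in the hypertrophic zone, and 0 to 1 for the hypertrophic minus resting/proliferating response. The first had 7 without CNP or BSA resting/proliferating replicate 4 and 5 without replicate 4 of all groups, and the second 21 without replicate 3 of all groups. Fewer cultures leave fewer samples; for the scalings the cause was not tested. Median centring kept 23 of 33 and 28 of 34 calls. With no normalization 4 members changed sign in the mineralized over the hypertrophic zone, Copg2 (0.12), Sec23b (0.0049), Trappc2l (0.13) and Trappc4 (0.0024, adjusted p = 0.995), and Copz1 (0.07) did over the resting/proliferating zone. Median centring turned Sar1a in the first (-0.18) and Arf1 and Arf4 in the second (-0.19 and -0.14). With the replicate block the CNP counts were 0, 1, 0 and 0 (3 zones and their average), and it changed no call. Without the culture as a block the zone counts were 10, 28 and 32. Pseudocounts of 1 and 64, no filter, and hybridization day or fluidics run as a block kept each count within 1.5 times. Over the members named by rule, 1475 of the re-computed differences kept direction and call, 119 lost the call and 3 gained it. Another 1 was reversed, with no normalization. Signals near the filter, such as Trappc9 with CNP, limit the size of a fold.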
